A study of Mus musculus with 2 samples.

Results

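Serpina3n and 6 other genes of the acute-phase response (Serpina3g, Serpina3f, Lcn2, Saa3, Hp and Cp) were followed through mononuclear cells of mouse limb muscle. They were picked by gene symbol, and the 7 were all found among the 32285 genes that both single-cell RNA-seq libraries listed. The study asked whether the drug Maraviroc (MVC) acts against senescent cells in aged muscle. The cells were live cells sorted from limb muscle after lysis of red blood cells, and aged C57BL/6 mice injected intraperitoneally with MVC gave 1 droplet library, while those injected with the vehicle DMSO gave the other. The study presents these libraries in the account of its short treatment with the higher dose, and the number of animals behind each library was not given in the sources used here. With 1 library per group there was no replicate, so no difference could be tested, and intervals in brackets are exact 95% intervals that cover counting error only. The 5437 cells of the DMSO library held 38748234 unique molecular identifiers (UMIs, each standing for 1 captured transcript) with a median of 5802 per cell, and the 5454 cells of the MVC library held 35518029 with a median of 5195. The libraries shared 9 cell barcodes. Levels are counts per 1000000 UMIs of the same cells and library (CPM). Cells were put into 14 named classes by fixed marker genes, after a clustering that left out the members and the other genes of the lists used below. In each of these classes every class marker was detected in both libraries. Serpina3n was selected for its low MVC to DMSO ratio in these same libraries, so the values of that contrast are a description.

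The acute-phase response is the change in secreted proteins that follows injury or infection, driven by interleukin-6 and interleukin-1 through STAT3, C/EBP and NF-kB factors and helped by glucocorticoids. The liver makes most of these proteins, but stromal cells, endothelium and leukocytes make them as well. Serpina3n belongs to the mouse family of serpins that stands in for the single human antichymotrypsin, an inhibitor of neutrophil and mast cell proteases, and its reactive centre loop, the bait that the protease cuts, lies toward the C terminus. Lcn2 is a lipocalin that binds bacterial siderophores and is stored in neutrophil granules. Saa3 is a serum amyloid A made outside the liver, Hp is haptoglobin, which captures free haemoglobin, and Cp is ceruloplasmin, a copper-carrying ferroxidase that lets iron leave cells.

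The Serpina3 genes lie side by side on chromosome 12, and their transcripts resemble each other, so their sequences are shown before their counts. Serpina3n occupies chr12:104406729-104414329 on the plus strand of GRCm38 (mm10) with 5 exons. Its coding sequence was 85.2% identical with that of Serpina3m, 85.2% with Serpina3g over 648 aligned bases, 86.0% with Serpina3f and 86.0% with Serpina3c. The copies part most in a stretch of exon 5, where 60 bases of Serpina3n coding sequence (chr12:104413470-104413529, coding bases 1121 to 1180 of 1254) were set against the copies. Each line runs 5′ to 3′ along the coding strand, and capitals mark bases that are not those of Serpina3n in the alignment, whose gaps are closed up.
Serpina3n: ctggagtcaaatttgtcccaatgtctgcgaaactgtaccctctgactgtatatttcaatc
Serpina3m: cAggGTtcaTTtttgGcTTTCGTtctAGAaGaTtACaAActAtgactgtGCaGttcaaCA
Serpina3g: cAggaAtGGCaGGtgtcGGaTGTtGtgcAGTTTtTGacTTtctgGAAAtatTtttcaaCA
Serpina3f: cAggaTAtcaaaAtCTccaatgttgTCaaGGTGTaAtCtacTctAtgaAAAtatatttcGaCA
Serpina3c: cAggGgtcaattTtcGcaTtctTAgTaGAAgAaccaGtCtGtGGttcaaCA
The stretches of the copies lie at chr12:104393791-104393850 (Serpina3m), chr12:104241094-104241153 (Serpina3g), chr12:104220267-104220329 (Serpina3f) and chr12:104147315-104147365 (Serpina3c, minus strand). Of the 60 Serpina3n bases, 33 were kept in Serpina3m, 31 in Serpina3g, 40 in Serpina3f and 32 in Serpina3c. Toward the 3′ end Serpina3n was well separated from its copies, although which transcript end the libraries read was not given in the sources used here. Of the 31-base words in its last 500 transcript bases 1.70% occurred in another gene, against 21.6% over the whole transcript. The same shares were 15.1% and 30.1% for Serpina3g and 12.6% and 27.4% for Serpina3f, so the counts of these 2 genes carry more doubt, mainly toward each other. Lcn2 (chr2:32384633-32388252) and Cp (chr3:19957054-20009145) shared no such word with another gene. Hp (chr8:109575128-109579172) shared 0.304% of its words. Saa3 (chr7:46711998-46715700) shared 5.71%, mostly with Saa1.

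Serpina3n and Serpina3c, which are not adjacent, also resemble each other in front of the gene. These stretches are printed because the counts of these copies parted between the libraries, as shown further on. The 250 bases before the RefSeq gene start (GRCm38.p6) were 92.7% identical over 247 aligned bases. Serpina3n is taken from chr12:104406458-104406707 (plus strand) and Serpina3c from chr12:104153873-104154122 (minus strand), and capitals mark bases that are not those of Serpina3n.
Serpina3n: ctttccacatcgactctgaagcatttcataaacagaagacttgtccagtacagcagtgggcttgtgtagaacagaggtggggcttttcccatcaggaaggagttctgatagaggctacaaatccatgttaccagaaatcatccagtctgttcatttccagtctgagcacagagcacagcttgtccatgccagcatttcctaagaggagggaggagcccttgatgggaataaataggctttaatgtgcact
Serpina3c: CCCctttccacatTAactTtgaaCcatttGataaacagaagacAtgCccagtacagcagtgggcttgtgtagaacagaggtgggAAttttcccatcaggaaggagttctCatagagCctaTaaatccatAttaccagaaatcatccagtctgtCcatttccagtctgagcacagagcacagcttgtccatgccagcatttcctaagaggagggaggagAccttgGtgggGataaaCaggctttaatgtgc
The same stretch of the other copies was 75.3% identical with Serpina3n in Serpina3b, 71.2% in Serpina3i, 68.7% in Serpina3f, 61.5% in Serpina3j, 58.0% in Serpina3g and 56.2% in Serpina3a. Motif letters were searched on both strands from 250 bases before the gene start to 50 bases after it. The glucocorticoid receptor motif ACANNNTGT was found as ACAGCTTGT starting 76 bases before Serpina3n and 73 bases before Serpina3c, and 6.83% of 32544 promoters of this length held it. A broad NF-kB motif, held by 19.5% of promoters, was matched in Serpina3n by GGGCTTTTCC at 171 bases and GGAGGAGCCC at 42 bases before the start, and in Serpina3c by GGAATTTTCC at 168 bases. The letters TTCNNNGAA (STAT, 8.33% of promoters) and TTGCNNAA (C/EBP, 10.8%) were found in neither. Serpina3g held the STAT letters as TTCCCAGAA at 33 bases and an NF-kB match as GGGGGTTTCC at 85 bases before its start. Serpina3f, counted from the first of its 2 starts, held STAT letters (TTCCTAGAA at 121 bases), C/EBP letters (TTTTGCAA at 150 and TTCAGCAA at 22 bases) and the same glucocorticoid receptor match at 83 bases. C/EBP letters were also found before Lcn2 (TTGCTCAA at 216 bases), Saa3 (TTATGCAA at 99 bases) and 1 of the 2 starts of Cp (TTTTGCAA at 70 bases), and Lcn2 held an NF-kB match (GGAGTCCTCC at 43 bases) and glucocorticoid receptor letters (ACAGAATGT at 152 bases) as well. None of the matches named here overlap. A match of letters describes the sequence, not binding.

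Serpina3n was a gene of stromal, lymphatic and glial cells in these muscles. In the DMSO library its level was highest in Lymphatic EC-like cells (endothelial cells of lymph vessels), at 332 CPM (289–380), followed by Schwann-like cells (the glia of nerves) at 300 CPM (257–348). Fibro-adipogenic progenitor (FAP)-like cells, the interstitial mesenchymal cells of muscle, had 223 CPM (215–231) and Tenocyte-like cells (tendon fibroblasts) 198 CPM (185–213). The intervals of Lymphatic EC-like and Schwann-like cells overlapped, while those of Schwann-like, FAP-like and Tenocyte-like cells did not. A step lower came Perineurial-like cells (the sheath of nerves) with 53.8 CPM (37.9–74.2), MuSC-like cells (muscle stem cells) with 35.9 CPM (25.3–49.5) and SMC-like cells (smooth muscle) with 19.9 CPM (13.5–28.5), whose neighbouring intervals overlapped.

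Macrophage-like, Pericyte-like and EC-like cells (blood vessel endothelium) had between 5.82 and 10.1 CPM in the DMSO library. T/NK-like, Neutrophil-like and B cell-like cells gave 6, 1 and 2 UMIs there, and Myofibre-like cells gave 0. FAP-like cells supplied most of the transcripts, with 65.5% of all Serpina3n UMIs in the DMSO library and 54.4% in the MVC library. In the MVC library the order of the named classes was changed, with Schwann-like cells highest at 159 CPM (131–192), then Lymphatic EC-like cells at 94.9 CPM (70.2–125), Tenocyte-like cells at 54.1 CPM (47.3–61.7) and FAP-like cells at 45.9 CPM (42.3–49.6).

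**Figure D1:**
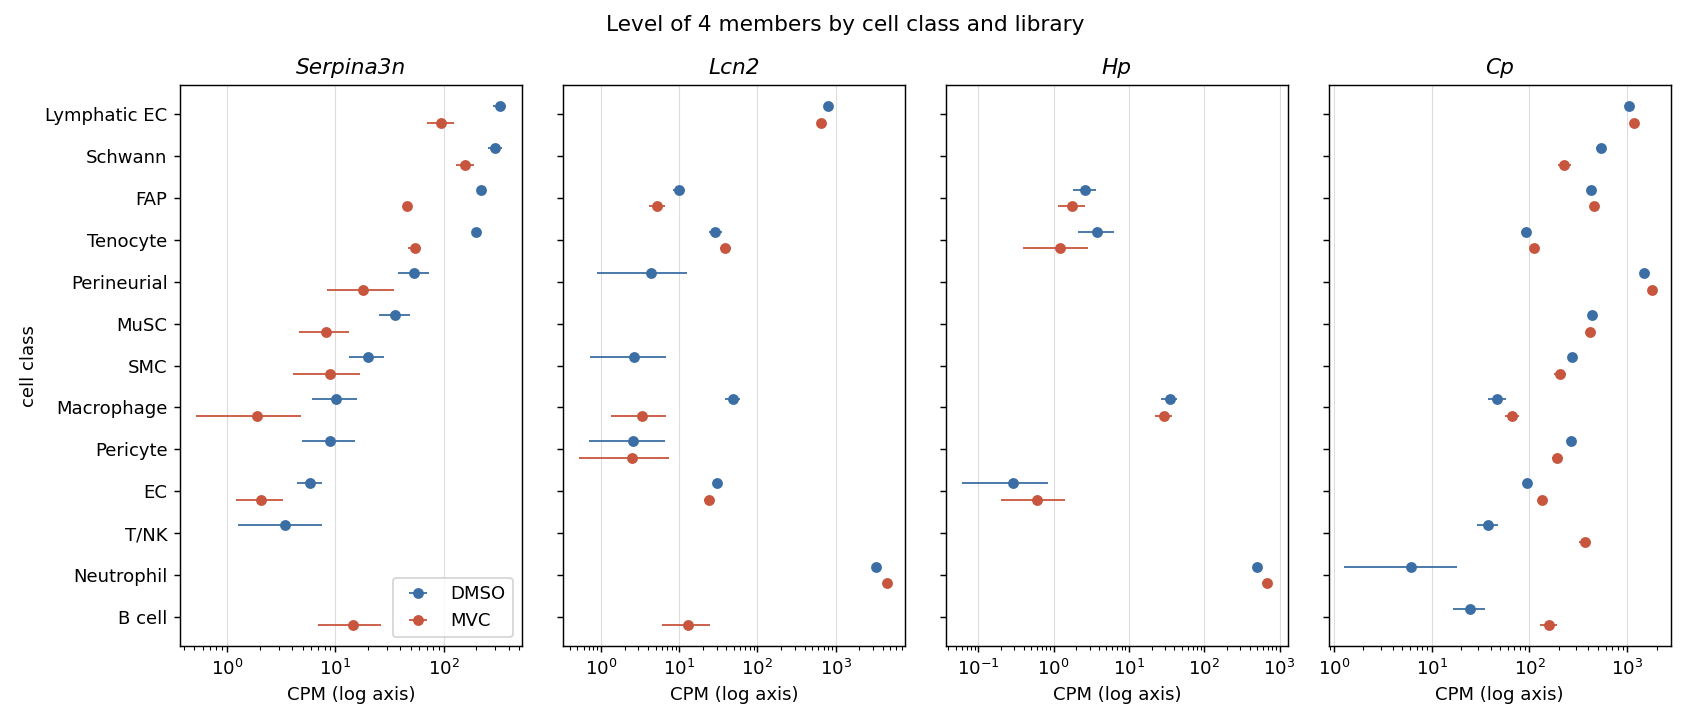
Levels of Serpina3n, Lcn2, Hp and Cp (x axes, CPM on a log scale) in 13 cell classes (y axis) in the DMSO library (blue) and the MVC library (red); points are the level of 1 library, bars are exact 95% Poisson intervals, and a library with under 3 UMIs of the gene is not drawn. Serpina3n sits to the left in the MVC library in the stromal, lymphatic and Schwann rows (223 against 45.9 CPM in FAP-like cells), Lcn2 and Hp are highest in Neutrophil-like cells, and Cp is spread over most classes.

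Serpina3n was lower in the MVC library in the stromal, lymphatic and Schwann classes that held most of it. Smaller counts in other classes were mostly lower too. Some of these depended on the settings or cannot be told apart from free RNA, as given below. Over all kept cells there were 4301 UMIs in the DMSO library and 1137 in the MVC library, or 111 CPM (108–114) against 32.0 CPM (30.2–33.9), a ratio of 0.288 (0.270–0.308). In FAP-like cells the counts were 2819 UMIs in 1167 DMSO cells and 618 UMIs in 1420 MVC cells, a ratio of 0.206 (0.189–0.225). In Tenocyte-like cells they were 785 and 224 UMIs, a ratio of 0.273 (0.234–0.317). The intervals of the levels did not meet in any of these, and more MVC than DMSO cells were in both classes.

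Lymphatic EC-like cells gave 214 UMIs in 75 DMSO cells and 49 UMIs in 78 MVC cells, a ratio of 0.286 (0.205–0.391). When each cell was thinned to 2000 UMIs the ratio in these cells was 0.551, a shift of over 1.5 times. Schwann-like cells had 176 and 109 UMIs, and their ratio of 0.531 (0.415–0.679) lay nearer to 1 than that of FAP-like cells, with intervals that did not overlap. MuSC-like cells had 37 and 15 UMIs, a ratio of 0.228 (0.116–0.426), and their 3 top cells held 54.1% and 80.0% of the counts, with a log2 ratio of -2.13 with them and -3.35 without. Macrophage-like cells had 19 UMIs from 6 cells and 4 from 2 cells, a ratio of 0.187 (0.0462–0.562). Pericyte-like cells had 14 UMIs from 6 cells and 1 UMI, a ratio of 0.0931 (0.00220–0.612). In the DMSO library 3 cells held 84.2% of the Macrophage-like and 78.6% of the Pericyte-like count. Perineurial-like cells had 37 and 9 UMIs with a ratio of 0.339 (0.144–0.714), but under a finer clustering the log2 ratio was 0.77, on the other side of 0. Of the 12 named classes with a UMI in both libraries, the interval lay below 1 in 10, spanned 1 in T/NK-like cells (6 and 1 UMIs) and lay above 1 in B cell-like cells, where 2 UMIs stood against 10 that came from 3 cells. Summed FAP marker genes in B cell-like cells were 345 CPM in the DMSO and 3019 CPM in the MVC library, and their part in this count was not tested.

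Dcn, an abundant FAP transcript, gives a scale for free RNA from FAP-like cells, which had 15.1 Serpina3n UMIs per 1000 Dcn UMIs in the DMSO library. Pericyte-like (8.98), SMC-like (16.3), T/NK-like (13.7) and B cell-like cells (10.5) were near or below that, so their Serpina3n cannot be told apart from such RNA. Macrophage-like (37.5), EC-like (57.9), Schwann-like (223), MuSC-like (430) and Lymphatic EC-like cells (1659) were above it. Tenocyte-like (15.6) and Perineurial-like cells (3.37) were near or below it. These classes held 50295 and 10990 Dcn UMIs themselves, so Dcn gives no scale for free RNA in them.

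For reference the same contrast was taken over all genes, where the place of Serpina3n restates how it was selected. A gene was counted as lower or higher when log2(CPM + 10) differed by at least 1, that is 2-fold after a pseudocount of 10 CPM, among genes with at least 50 UMIs in the class. Over all kept cells 0.202% of genes were lower in the MVC library and 0.0952% were higher. Among the 6 members with enough UMIs there, only Serpina3n was lower and none was higher, and Serpina3n stood 10th from the lowest of 16805 genes. In FAP-like cells 0.197% of 12677 genes were lower and 0.126% higher. Of 5 members tested in FAP-like cells Serpina3n was lower, and it had the second lowest value of all genes, after Cxcl13, a B cell chemokine that went from 329 to 35.1 CPM. The genes next in that order were Gm17167, Galnt15, Sntg1 and Ftl1-ps1. The median log2 ratio of all genes was 0.08 in FAP-like cells and 0.02 over all cells.

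In Tenocyte-like cells 0.421% of genes were lower and 0.485% higher, and of the 4 members tested Serpina3n was lower and Saa3 higher. In Lymphatic EC-like cells the shares were larger, 3.45% lower and 2.15% higher, and Serpina3n was the lower one of 3 members tested, in place 53 of 3910 genes. In MuSC-like cells 0.594% of genes were lower, and 1 of the 2 members tested, Serpina3n, was among them. In Schwann-like cells, with 1.64% lower and 2.22% higher, Serpina3n did not reach the 2-fold step while Cp did, so 1 of 2 members was lower. EC-like cells had 0.138% of genes lower and 0 of the 3 members tested. These counts include the gene the selection was made on, so nothing is read from them about the group.

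The MVC to DMSO ratio was not the same in all clusters of a class. Among FAP-like clusters, Serpina3n was 238 against 36.5 CPM in the cluster led by Cxcl14 and Smoc2, a ratio of 0.153 (0.133–0.177). It was 269 against 72.7 CPM in the cluster led by Ifi205 and Ptx3, a ratio of 0.271 (0.236–0.310), and 154 against 36.0 CPM in the cluster led by Pi16, a gene of adventitial fibroblasts, a ratio of 0.234 (0.192–0.285). The interval of the Cxcl14 cluster lay below those of the other FAP-like clusters. Tenocyte-like cells held a sharper split. The cluster led by Angptl7 and Wif1 had 418 against 85.2 CPM, a ratio of 0.204 (0.170–0.243), and the cluster led by the matrix genes Col22a1 and Thbs4 had 42.3 against 30.03 CPM, a ratio of 0.710 (0.515–0.975).

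Within EC-like cells Serpina3n came almost entirely from the cluster led by Selp and Sele, adhesion molecules of venules, where 53 UMIs stood against 4. Over all EC-like cells 3 cells held 66.7% of the 60 DMSO UMIs, and without the 3 top cells of each library the log2 interval spanned 0 (-2.38 to 0.25), as it did when thinned (-2.60 to 0.18) and when clusters were centred within each library (-1.64 to 0.16). The 2 SMC-like clusters went opposite ways, from 27 to 2 UMIs in the cluster with Ccl19 among its leading genes and from 3 to 7 UMIs in the cluster led by the contractile genes Acta2 and Myh11, whose interval (0.662–17.4) spanned 1. Among Schwann-like cells the cluster led by Cadm2 and Chl1 had the highest level of the 27 clusters in each library, 618 against 404 CPM, a ratio of 0.653 (0.494–0.860). A small cluster that stayed unnamed (25 DMSO and 26 MVC cells, led by Pappa2) had 382 against 252 CPM, a ratio of 0.660 (0.479–0.904).

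**Figure D2:**
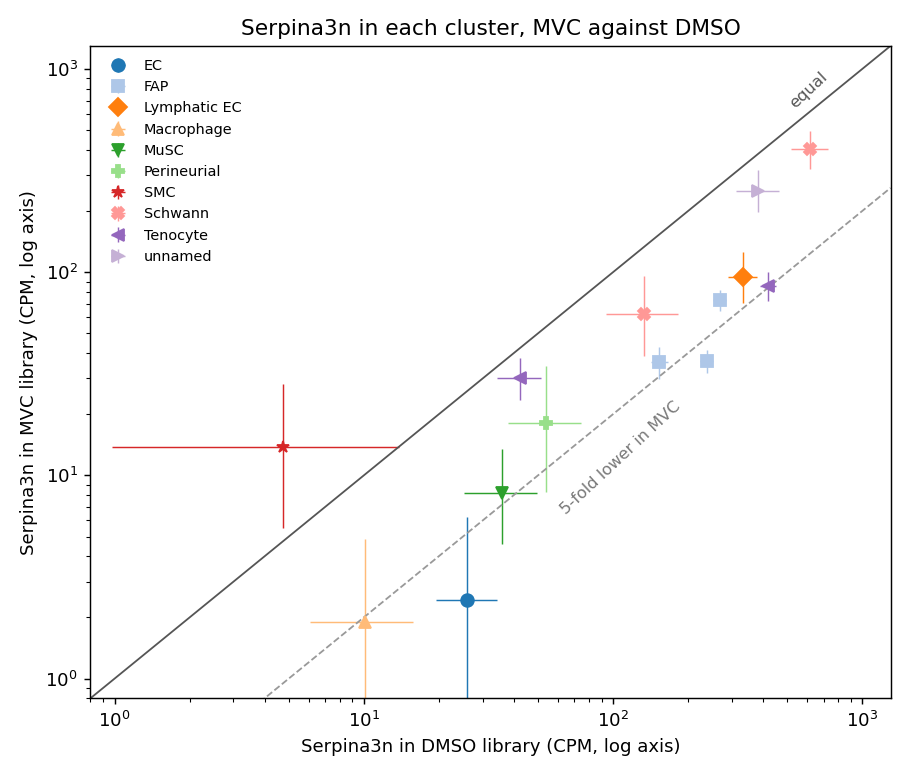
Serpina3n level in the MVC library (y axis) against the DMSO library (x axis), both in CPM on log scales, with 1 point per cluster that had at least 3 UMIs in each library and bars for exact 95% Poisson intervals; the solid line marks equal levels and the dashed line a level 5-fold lower in the MVC library. All points but 1 SMC-like cluster lie below the solid line, the FAP-like clusters and the higher Tenocyte-like cluster lie near the dashed line, and the higher Schwann-like cluster (618 against 404 CPM) and the unnamed cluster lie closer to equality.

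Both the number of cells with Serpina3n and the count per cell were lower. At least 1 UMI was found in 54.9% of DMSO FAP-like cells (52.0–57.8) and 20.8% of MVC FAP-like cells (18.7–23.0). The cells with a UMI held 4.40 UMIs each on average in the DMSO library and 2.09 in the MVC library. At 5 or more UMIs there were 179 cells (15.3%) against 19 cells (1.34%), at 10 or more 63 cells (5.40%) against 4 cells (0.282%), and at 20 or more 23 cells (1.97%) against 3 cells (0.211%). In Tenocyte-like cells 31.8% against 17.4% had a UMI and 25 against 3 cells had 10 or more. In Lymphatic EC-like cells 57.3% against 28.2% had a UMI, and 17 against 2 cells had 5 or more.

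Median depth differed only slightly, with 10387 UMIs per DMSO and 9182 per MVC FAP-like cell. After thinning each cell to 2000 UMIs, 27.5% of DMSO and 7.78% of MVC FAP-like cells had a Serpina3n UMI, and 18.8% and 6.49% of Tenocyte-like cells. The share in EC-like cells, which had few Serpina3n UMIs outside the Selp and Sele cluster, was 0.907% in the DMSO and 0.529% in the MVC library (0.560% and 0.469% when thinned), with a median of 3813 and 3270 UMIs per cell. The FAP-like shares were well above that level in both libraries. No single cell decided the counts, since the highest cell held 91 UMIs in the DMSO and 41 in the MVC library and none of the top 3 cells of either library was called a doublet.

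**Figure D3:**
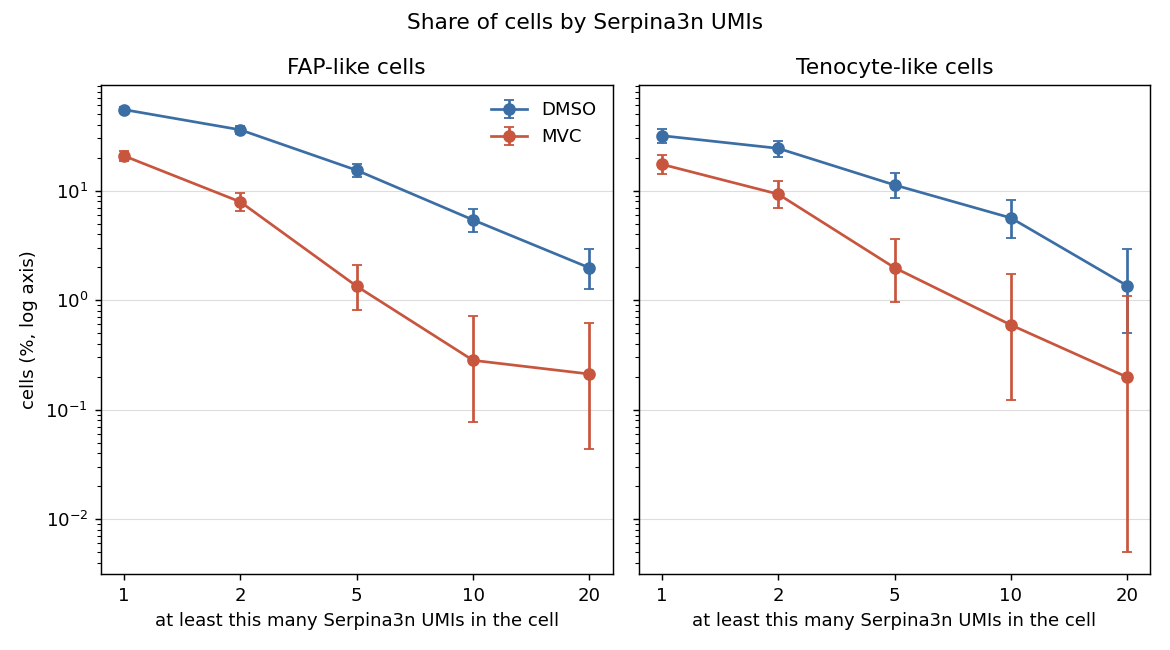
Percent of FAP-like cells (left) and Tenocyte-like cells (right) that held at least 1, 2, 5, 10 or 20 Serpina3n UMIs (x axis), on a log y axis, in the DMSO library (blue) and the MVC library (red), with exact 95% binomial intervals as bars. The MVC line lies below the DMSO line at each step, with 54.9% against 20.8% of FAP-like cells at 1 UMI and 1.97% against 0.211% at 20 UMIs.

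The near copies did not all follow Serpina3n. Serpina3m had 78 DMSO and 17 MVC UMIs over all cells, a ratio of 0.238 (0.132–0.406) close to that of Serpina3n. Of cells with Serpina3m, 88.5% in the DMSO library and 78.6% in the MVC library (11 of 14 cells) also held Serpina3n, against 17.8% and 8.95% of all cells. Within FAP-like cells these shares were 89.2% and 71.4%, against 54.9% and 20.8% of the class. Cell depth was not matched in these shares. Serpina3m made 1.81 and 1.50 UMIs per 100 of Serpina3n. Its gene model overlaps that of Serpina3k, and whether its counts are its own was not tested. Serpina3c, by contrast, had 71 and 78 UMIs. In FAP-like cells, which held nearly all of them, Serpina3c was 5.37 CPM in the DMSO and 5.42 CPM in the MVC library, a ratio of 1.01 (0.715–1.43) whose interval lay above that of Serpina3n in the same cells. Of FAP-like cells with Serpina3c, 77.2% in the DMSO library and 43.5% in the MVC library also held Serpina3n. Serpina3n and Serpina3c are the copies whose 250 upstream bases are printed above.

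Serpina3g was found in lymphoid and lymphatic cells rather than in FAP-like cells, which gave 1 and 2 UMIs. It had 73 DMSO and 36 MVC UMIs in all, a ratio of 0.538 (0.351–0.813). In T/NK-like cells it had 23 UMIs (13.2 CPM) in the DMSO and 19 UMIs (37.1 CPM) in the MVC library, a ratio of 2.80 (1.44–5.38). The 19 UMIs came from 8 cells. The log2 interval spanned 0 when thinned (-0.39 to 4.95) and without the 3 top cells of each library (-0.19 to 3.06). In B cell-like cells Serpina3g had 15 and 9 UMIs, a ratio of 1.03 (0.397–2.51). Lymphatic EC-like cells gave 21 UMIs from 7 DMSO cells and 0 in 78 MVC cells, with an exact interval of the ratio from 0 to 0.240. Serpina3f was rarer still, with 33 UMIs from 8 DMSO cells and 16 from 11 MVC cells, a ratio of 0.529 (0.272–0.989). Single cells held much of it, with 9 UMIs in a B cell-like cell and 8 in an SMC-like cell of the DMSO library. Of the remaining copies Serpina3i had 5 and 4 UMIs and Serpina3b 1 and 0, and Serpina3a, Serpina3j and Serpina3k had none.

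**Figure D4:**
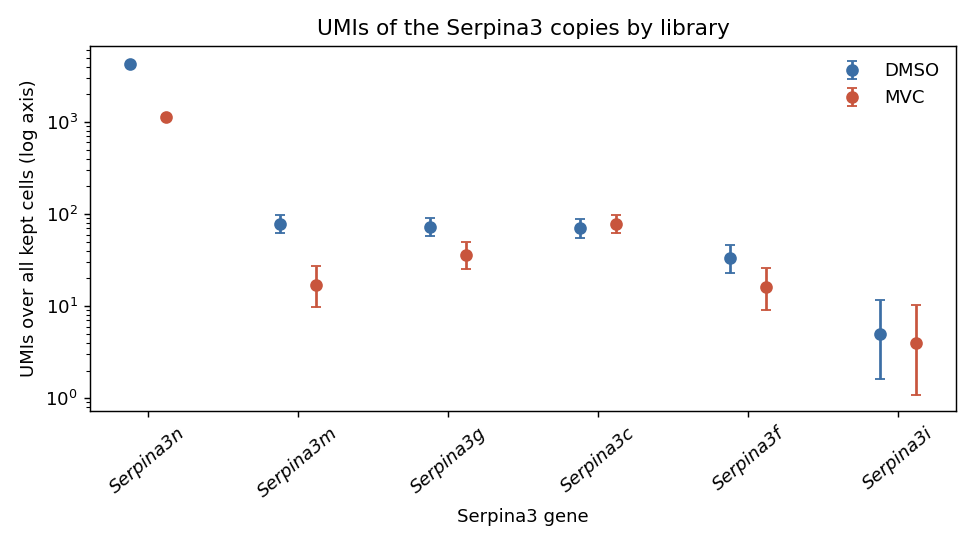
UMIs over all kept cells (y axis, log scale) of the Serpina3 genes with more than 1 UMI in each library (x axis), in the DMSO library (blue) and the MVC library (red), with exact 95% Poisson intervals as bars. Serpina3n and Serpina3m lie lower in the MVC library (4301 to 1137 and 78 to 17 UMIs), while the Serpina3c intervals overlap (71 and 78 UMIs).

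Lcn2 was a neutrophil and lymphatic gene. Neutrophil-like cells held 1583 UMIs in the DMSO and 1037 in the MVC library, 56.9% and 55.3% of all Lcn2 UMIs, at 3273 CPM (3114–3439) and 4551 CPM (4278–4837). That ratio of 1.39 (1.28–1.50) turned to 0.747 when called doublets were removed. The 3 MVC cells with most Lcn2 (216, 171 and 109 UMIs) were all called doublets, and their part in that turn was not tested. Without the 3 top cells of each library the log2 ratio was 0.38 (0.22 to 0.53). The settings gave different sides, so no direction is given. In Neutrophil-like cells 8.61% of genes were lower in the MVC library, and of the 2 members tested, Lcn2 and Hp, 0 were. Lymphatic EC-like cells came next, with 522 UMIs (810 CPM, 742–883) and 340 UMIs (658 CPM, 590–732), a ratio of 0.812 (0.707–0.933). Lcn2 was present in 74.7% and 71.8% of these cells. S100a8, a neutrophil gene with 16.1 and 17.1 UMIs per Lcn2 UMI in Neutrophil-like cells, had 2 and 1 UMIs in Lymphatic EC-like cells.

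Blood endothelium held less Lcn2, 30.4 against 24.3 CPM with a ratio of 0.798 (0.664–0.956), and most of it was in the Selp and Sele cluster at 118 against 98.3 CPM. When thinned, the log2 ratio in these cells was 0.0011 (-0.52 to 0.52), so no difference was detectable at that depth. Tenocyte-like cells were the reverse, with 29.0 CPM in the DMSO and 38.9 CPM in the MVC library, a ratio of 1.34 (1.05–1.72) that came from the Angptl7 and Wif1 cluster (65.1 against 87.9 CPM). When thinned, the log2 ratio in Tenocyte-like cells was 0.34 with an interval that spanned 0 (-0.45 to 1.15). A Lcn2 UMI was found in 10.4% of these cells in the DMSO and 9.29% in the MVC library. The Angptl7 and Wif1 cluster is the one in which Serpina3n was 0.204-fold, so before thinning the 2 genes lay on opposite sides of 1 in it. In FAP-like cells Lcn2 was low, 9.87 against 5.27 CPM with a ratio of 0.534 (0.393–0.720), and S100a8 there went from 136 to 9 UMIs, whose part in the Lcn2 count was not tested.

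Macrophage-like cells had 91 and 7 Lcn2 UMIs, a ratio of 0.0682 (0.0267–0.146), and the 3 cells with most Lcn2 held 75.8% of the DMSO count. On the log2 scale this was -3.87, against -1.69 when thinned (-4.27 to 0.44) and -2.53 as a mean of each cell's own CPM. In Macrophage-like cells 1.24% of genes were lower, and among them were 2 of the 4 members tested, Lcn2 and Saa3. B cell-like cells had 0 UMIs in the DMSO and 9 in the MVC library, from 2 cells, and the lower end of the exact interval of the ratio was 3.38. Over all cells Lcn2 had 2781 and 1874 UMIs, a ratio of 0.735 (0.693–0.780).

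Hp followed myeloid cells. Neutrophil-like cells held 242 DMSO and 155 MVC UMIs at 500 CPM (439–568) and 680 CPM (577–796), a ratio of 1.36 (1.10–1.67) that was 0.792 without called doublets, so no direction is given here either. Macrophage-like cells had 65 and 61 UMIs, 34.7 against 28.8 CPM, with a ratio of 0.832 (0.577–1.20) that spanned 1. FAP-like cells had 33 and 24 UMIs with a ratio of 0.683 (0.387–1.19), and Tenocyte-like cells 15 and 5. No Hp UMI was seen in Lymphatic EC-like, MuSC-like, SMC-like, B cell-like or T/NK-like cells of either library. The total of 360 and 251 UMIs, a ratio of 0.761 (0.645–0.896), went with 64 Neutrophil-like cells in the DMSO and 34 in the MVC library.

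Saa3 was the transcript of a few cells. It had 166 UMIs in 16 DMSO cells and 192 UMIs in 8 MVC cells, and the 3 cells with most held 70.5% and 82.8% of them. The ratio of 1.26 (1.02–1.56) became -0.45 on the log2 scale without those 3 cells in each library. Macrophage-like cells gave 100 UMIs from 5 DMSO cells, 69 of them in 1 cell, and 0 in 212 MVC cells. Tenocyte-like cells gave 26 UMIs from 2 DMSO cells and 122 from 4 MVC cells, 89 of them in 1 cell, and FAP-like cells 35 and 70 UMIs from 4 cells each. A difference between the groups cannot be told apart from the draw of these few cells.

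Cp was the most widespread member and had no common direction. Over all cells it had 10253 UMIs in the DMSO and 11107 in the MVC library, 265 against 313 CPM with a ratio of 1.18 (1.15–1.21), and 31.3% of cells held it in each. Perineurial-like cells had the highest level, 1480 CPM (1391–1574) against 1803 CPM (1686–1925), but this difference was -0.32 on the log2 scale without the 3 cells with most Cp, which held 48.4% of the MVC count, and 1.14 under the finer clustering. Lymphatic EC-like cells had 1048 against 1187 CPM, a ratio of 1.13 (1.01–1.27). Schwann-like cells followed in the DMSO library with 540 CPM (482–603), and then MuSC-like cells with 434 CPM (395–476), whose interval contained that of FAP-like cells. In FAP-like cells Cp was 421 CPM (410–433) and 454 CPM (443–465), a ratio of 1.08 (1.04–1.12), while Serpina3n in them was 0.206-fold. The FAP-like ratio was on the other side of 1, at -0.03 on the log2 scale, when libraries were scaled by the median ratio of all genes.

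Inside the FAP-like class the clusters went different ways, from 508 to 434 CPM in the Cxcl14 cluster with a ratio of 0.853 (0.807–0.902) and from 586 to 773 CPM in the Ifi205 and Ptx3 cluster with a ratio of 1.32 (1.25–1.39). Schwann-like cells had the clearest lower Cp, with 317 against 156 UMIs and a ratio of 0.422 (0.346–0.513). It came from the cluster led by Grik2 and Bche, at 1006 against 404 CPM, and not from the Cadm2 cluster, at 93.4 against 92.8 CPM. Mural cells were lower as well, with a ratio of 0.720 (0.611–0.848) in Pericyte-like cells and 0.754 (0.635–0.894) in SMC-like cells, where the Acta2 and Myh11 cluster went from 67 to 2 UMIs and the Ccl19 cluster had 392 against 411 CPM. EC-like cells were higher at 95.3 against 134 CPM, a ratio of 1.40 (1.29–1.53), and so was their Selp and Sele cluster at 277 against 377 CPM. Tenocyte-like cells had a ratio of 1.20 (1.05–1.38) and MuSC-like cells one of 0.950 (0.844–1.07).

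In lymphocytes Cp was higher in the MVC library, 37.4 against 369 CPM in T/NK-like and 24.5 against 157 CPM in B cell-like cells. In T/NK-like cells 1 called doublet held 145 of the 189 MVC UMIs, and the log2 ratio was -1.07 without called doublets, while in B cell-like cells it was then 0.76. Summed FAP markers in T/NK-like cells were 465 CPM in the DMSO and 2366 CPM in the MVC library, and their part in the Cp count was not tested.

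**Figure D5:**
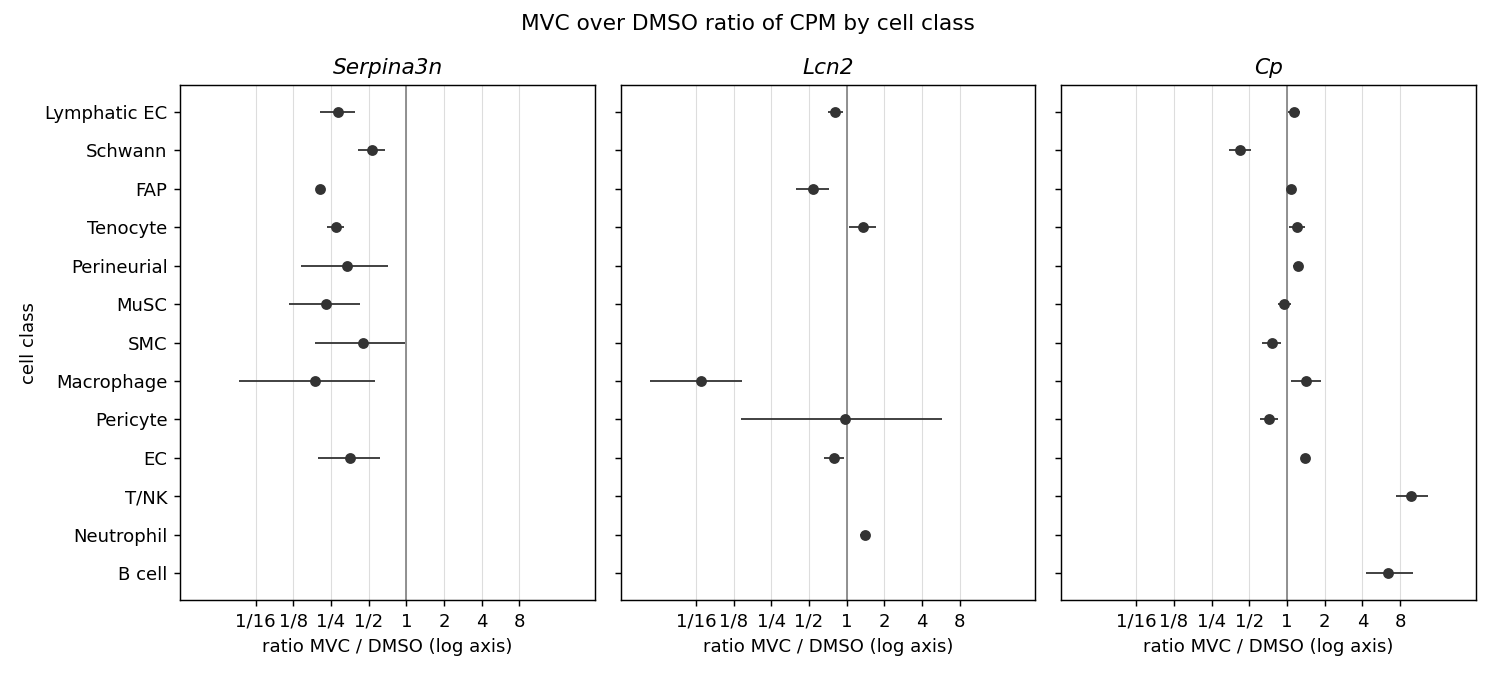
Ratio of CPM in the MVC library over the DMSO library (x axes, log scale) for Serpina3n, Lcn2 and Cp in each cell class (y axis); points are the ratio of 1 library to 1 library, bars are exact 95% intervals for counting error, the vertical line marks 1, and a class with under 3 UMIs of the gene in either library is not drawn. Serpina3n lies left of 1 in each class drawn, Lcn2 lies on either side (0.534 in FAP-like and 1.34 in Tenocyte-like cells), and Cp is 0.422 in Schwann-like and 1.08 in FAP-like cells.

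In FAP-like cells most of the other acute-phase genes with enough UMIs also had the lower level in the MVC library. Of a list of 37, 14 had enough UMIs in FAP-like cells. Of these, 1 (S100a9, 243 against 20 UMIs, a leukocyte gene) was lower past 2-fold with the pseudocount and none was higher. Of all genes in FAP-like cells 0.197% were lower past that step and 0.126% higher. S100a8, with 136 against 9 UMIs, stayed short of that step only through the pseudocount. 11 of the 14 had a log2 ratio below 0, and the median of the 14 was -0.53 against 0.08 for all genes. The share of all genes below 0 was not taken. The 14 include S100a8 and S100a9, whose source in FAP-like cells was not tested. The complement gene C4b went from 118 to 60.6 CPM, a ratio of 0.512 (0.469–0.558). Ptx3, a pentraxin, was 971 against 615 CPM and Lbp, which carries bacterial lipopolysaccharide, 185 against 117 CPM. Steap4, a metalloreductase, was higher at 220 against 274 CPM, a ratio of 1.25 (1.19–1.31), and the complement gene C3 was 910 against 856 CPM. Over all cells 22 of the list were tested and 1 was lower (Lrg1, 70.7 against 25.3 CPM), where 0.202% of all genes were. The median was -0.19 against 0.02.

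In Lymphatic EC-like cells 4 of 8 tested acute-phase genes were lower past 2-fold (C3, Cfb, Cd14 and Mt1), where 3.45% of all genes were, with a median of -1.04 against -0.01 for all genes. Cfb, complement factor B, had 77 UMIs in the DMSO and 2 in the MVC library, and the metallothionein Mt1 608 and 139. In Tenocyte-like cells 3 of 13 were lower (C4b, Cd14 and S100a9) and none was higher, where 0.421% of all genes were lower and 0.485% higher, with a median of -0.16 against 0.03. In Schwann-like cells 4 of 8 were lower (C3, Serping1, Mt1 and Mt2) and 3 were higher, namely Ptx3 and the neutrophil genes S100a8 (1 against 159 UMIs) and S100a9, where 1.64% of all genes were lower and 2.22% higher, and the median was -0.52 against 0.05. In T/NK-like cells the list went the other way, with 4 of 6 higher (C3, Serping1, Mt1 and Mt2), 1 lower (Cd14) and a median of 1.82 against 0.03, where 5.27% of all genes were higher and 2.41% lower and summed FAP markers were higher as given above. In Macrophage-like cells 3 of 11 were higher (Ptx3, Steap4 and S100a9) and 1 was lower (Il1rn), where 1.52% of all genes were higher and 1.24% lower, and the median was 0.15 against 0.04. In EC-like cells 2 of 13 were lower (Lbp and Lrg1), where 0.138% of all genes were, and the median was 0.02 against 0.04.

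The upstream cytokines, receptors and factors had a median nearer to that of all genes in FAP-like cells. Of 30 such genes, 26 were tested there and none passed 2-fold, where 0.197% of all genes were lower and 0.126% higher. 16 of the 26 had a log2 ratio below 0, with a median of -0.13 against 0.08 for all genes. Il6 itself was 672 against 600 CPM and Stat3 696 against 734 CPM. Socs3, a feedback inhibitor induced by STAT3, was 652 against 334 CPM, a ratio of 0.512 (0.494–0.531), and Lif, a cytokine of the interleukin-6 family, was 57.6 against 29.4 CPM. Among glucocorticoid responsive genes, Tsc22d3 was 127 against 66.4 CPM while Fkbp5 was 117 against 106 CPM, and the receptor Nr3c1 was higher at 154 against 211 CPM, a ratio of 1.37 (1.29–1.45). Over all cells 0 of 30 passed, where 0.202% of all genes were lower and 0.0952% higher. Socs3 was lower past 2-fold in Lymphatic EC-like cells (663 against 246 CPM), together with Lifr and Fkbp5. These were 3 of 19 tested, where 3.45% of all genes were lower. It was lower past 2-fold in Schwann-like cells too (523 against 178 CPM), together with Osmr and Cebpd. These were 3 of 19 tested, where 1.64% of all genes were lower.

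Partners of these proteins, the proteases that such serpins can bind and the receptors and iron genes tied to Lcn2, Hp and Cp, made a list of 22, of which 19 were tested over all cells. Gzmb, the granzyme of cytotoxic lymphocytes, was lower with 505 against 35 UMIs, and Elane, neutrophil elastase, was higher with 1 against 484 UMIs. Over all genes 0.202% were lower and 0.0952% higher. The libraries held 196 and 61 T/NK-like cells, whose part in the Gzmb count was not tested. Within them Gzmb was among 2 of 7 that were lower, where 2.41% of all genes were. Elane was among 4 of 13 that were higher in Macrophage-like cells, where 1.52% of all genes were. In FAP-like cells none of 11 tested passed 2-fold with the pseudocount, where 0.197% of all genes were lower and 0.126% higher. 10 of the 11 had a log2 ratio below 0, with a median of -0.09 against 0.08 for all genes. The haem oxygenase Hmox1 was 2371 against 1185 CPM, about 2-fold before the pseudocount. The ferritin gene Fth1 was 4703 against 2861 CPM, while Slc22a17, a receptor for Lcn2, was low at 5.13 against 7.20 CPM.

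The members did not form 1 pattern across cell types. Over 54 points, the 27 clusters in each library, Pearson's r of log2(CPM + 10) between members ran from -0.26 (Hp and Cp) to 0.69 (Lcn2 and Hp). Serpina3n had 0.53 with Cp, 0.21 with Saa3, 0.18 with Lcn2 and -0.15 with Hp. Points of 1 library share depth and free RNA, so these are descriptions. The genes most like Serpina3n among 10378 were Fgl2 (0.84), Fkbp10 (0.81), Aebp1 (0.77), Fam171b (0.76), Adamtsl1 (0.76), Abi3bp (0.76), Gpnmb (0.75) and Rnase4 (0.75), of which 5 were also among the first 8 by Spearman's rho. Hp was closest to Ifitm6, Mmp8, Wfdc21, Mmp9 and Csf3r (0.98 to 0.99), and Lcn2 to Pglyrp1 (0.84) and Wbp1l (0.82). Cp was closest to Igsf3 (0.81), A4galt (0.75), Fstl1 and Tnxb (0.73 each), and Saa3 had no gene above 0.58 (S100a5).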

How the data were processed

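Single-cell RNA-seq (10x Genomics) of sorted limb muscle mononuclear cells gave 1 matrix each. The authors deposited unnormalised counts of UMIs per gene and barcode, made with Cell Ranger 7.0.0 on mm10 per the labels. Seurat 5.0.1 is also named there, and the handling of intronic reads was not given in the sources used here. Groups followed the treatment label, with 1 library each. Following the filter of the study's methods, barcodes under 500 genes or above 10% mitochondrial UMIs were dropped. No free RNA correction was made. Cells were scaled to 10000 UMIs and clustered on 1965 variable genes, 30 components and 20 neighbours with leidenalg 0.10.2 at resolution 1 (scanpy 1.11.5), without integrating the libraries and without the members, the listed genes, Serpina3, mitochondrial and sex-linked genes. Of 27 clusters 25 took names from fixed markers, so names were rebuilt and may differ from the study's. Called doublets (236 and 238 cells) were kept in the values as given. The intervals of levels are exact Poisson, of ratios exact conditional and of shares Clopper-Pearson (scipy 1.17.1). No test was run. Only the ratio intervals were tried on simulated data, drawn as independent Poisson counts. Such counts lack the unevenness between cells seen here, so that trial cannot show how the intervals cover it. The members and lists were chosen with earlier results of these data known. Named genes were the members, the Serpina3 copies, 2 to 4 examples per list, the 8 genes most like Serpina3n and the 5 most like each of Lcn2, Saa3, Hp and Cp, with 1 gene not reported here. Alternatives removed doublets, changed the cell filter, scaling, pseudocount, minimum UMIs, resolution or thinning, averaged each cell's own CPM, or left out the top 3 cells. Gene models were GENCODE M21, and 6 of 7 members had a RefSeq upstream sequence.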

Additional observations from a re-analysis of the deposited data

Results flagged for a closer look

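Counting intervals on opposite sides of 1 in different cell classes marked 3 members, among classes with at least 100 UMIs of the gene, and the difference between classes was not tested, since there was 1 library per group. For Lcn2 the MVC to DMSO ratio was 0.534 in FAP-like, 0.798 in EC-like (no difference when thinned) and 0.812 in Lymphatic EC-like cells. It was 1.34 in Tenocyte-like (interval spanning 1 when thinned) and 1.39 in Neutrophil-like cells, the last of which changed side without called doublets. For Saa3 it was 0 in Macrophage-like cells, 1.88 in FAP-like and 4.49 in Tenocyte-like cells, each from 5 cells or fewer per library. For Cp it was 0.422 in Schwann-like, 0.72 in Pericyte-like and 0.754 in SMC-like cells. Cp ratios above 1 were 1.08 in FAP-like, 1.13 in Lymphatic EC-like, 1.2 in Tenocyte-like, 1.22 in Perineurial-like, 1.4 in EC-like, 1.41 in Macrophage-like, 6.44 in B cell-like and 9.86 in T/NK-like cells. Without called doublets the log2 ratio of Cp was -1.07 in T/NK-like cells and 0.76 (-0.79 to 2.25) in B cell-like cells. It also changed sign in Perineurial-like cells without the 3 top cells (-0.32) and in FAP-like cells under some settings.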

How the results depend on the processing

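No paired analysis was possible because each group held 1 library. Of 303 values under alternatives, 240 stayed within the counting interval or, for counts of genes, within 1.5 times. Values here are log2 ratios, MVC over DMSO, of which 17 changed sign, in 11 results. The 2 that had been past 2-fold were Serpina3n in Perineurial-like cells at resolution 2 (0.77) and Cp in T/NK-like cells without doublets (-1.07); the cause was not tested. The others were Lcn2 (-0.42) and Hp (-0.34) in Neutrophil-like cells without doublets, Hp there when thinned, Lcn2 in EC-like cells when thinned, Hp in Macrophage-like cells by each cell's own CPM, Saa3 over all cells and in FAP-like cells (-0.09) and Cp in Perineurial-like cells (-0.32) without the 3 top cells, Cp in FAP-like cells in 3 settings and Serpina3c there in 4 (-0.46 to -0.02). Over all cells, averaging each cell's own CPM gave -1.66 for Serpina3n, -0.54 for Lcn2, 1.18 for Saa3 and 0.17 for Cp, and -2.41 for Serpina3n in FAP-like cells. Thinning gave -1.63 for Serpina3n, -0.22 for Serpina3g, 2.31 for Saa3 and 0.30 for Cp. Without doublets Lcn2 was -0.83 and Hp -0.77. Without the 3 top cells Lcn2 was -0.54 and Saa3 -0.45. Median-ratio scaling gave 0.18 for Cp, and -2.41 for Serpina3n in FAP-like cells. Over its alternatives Serpina3n ran from -2.41 to -2.28 in FAP-like, -2.05 to -1.61 in Tenocyte-like, -2.09 to -0.86 in Lymphatic EC-like and -1.11 to -0.66 in Schwann-like cells. With a pseudocount of 1 CPM 0.671% of genes were lower in FAP-like cells. No value without the cell filter was made for single classes. Under about 50 UMIs per class, as for Serpina3f and Hp outside myeloid cells, counts set wide intervals.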
